A study of Mus musculus with 2 samples.

Results

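The genes described here are the 10 genes of MHC class II antigen presentation named by symbol in the deposited counts, of 31253 genes listed. They are the peptide-binding chains H2-Aa, H2-Ab1 and H2-Eb1, the invariant chain Cd74, the peptide exchange factor genes H2-DMa, H2-DMb1 and H2-DMb2, its modulator genes H2-Oa and H2-Ob, and the transactivator Ciita. They were chosen by name and not by their values, and all 10 had UMIs (unique molecular identifiers, each counting 1 captured transcript) in both libraries. MHC class II is the surface complex that shows peptides from taken-up antigen to CD4+ T cells. Its alpha and beta chains assemble with the invariant chain, which blocks the groove until proteases cut it away, and H2-DM then exchanges the remaining fragment for antigen peptides while H2-O restrains H2-DM. Ciita is not bound to DNA itself but is recruited by factors on the X and Y boxes of class II promoters. It is known to be high in dendritic cells and B cells and to be induced by interferon gamma in macrophages.

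The measurement was single-cell RNA-seq (BD Rhapsody) of cells sorted as Cd45+ from B16-F10 melanoma, a mouse melanoma cell line grown under the skin of C57BL/6 mice. The question was how the immune cells of the tumor differ without Irg1 (Acod1), the enzyme that makes itaconate. One library came from Irg1+/+ mice and 1 from Irg1-/- mice, which lack the gene in all cells and were backcrossed to C57BL/6J. In both, 200000 tumor cells were injected, tumors were taken on day 10, pieces of 100 mm3 from 3 mice were pooled, and 6000 cells were sorted per sample. The mice were female, 6 to 10 weeks old as the study states for its animals, and 8 to 10 weeks for its subcutaneous tumor models. No drug is named for these samples. The libraries held 6408 and 5896 cell barcodes (Irg1+/+ first here and throughout), of which 6284 and 5794 were kept, with 42105693 and 35307041 UMIs and medians of 4528 and 4594.5 UMIs per cell. The libraries had 36 barcodes in common. The number of barcodes under each label is the number of cells listed for that genotype in the study.

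With 1 library per genotype there was no replicate of the animals, so no difference between the libraries was tested, and genotype cannot be told apart from library. Intervals are exact 95% intervals, except where named as approximate, and cover counting error only. Levels are counts per 1000000 UMIs (CPM) summed over the cells of a gate. UMIs were counted at the 3′ end, so a level is not scaled for transcript length, and where genes are set beside each other it is as captured molecules. Acod1 itself was not lower in the library labelled Irg1-/-, with 3696 UMIs (87.8 CPM) in the Irg1+/+ library and 3805 UMIs (108 CPM) in the other. It was lower there in neutrophil-like cells (2803 and 1935 CPM) and classical monocyte-like cells (173 and 130 CPM), and higher in C1q macrophage-like cells (105 and 144 CPM). Which part of Acod1 is deleted is not given in the sources used here, and a 3′ count outside the deleted part would not check the label. The second library is therefore called the library labelled Irg1-/-.

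Most of the genes lie together in the MHC locus (GRCm38, GENCODE annotation). Between H2-Oa (chr17:34092340-34095234) and H2-Eb1 (chr17:34305867-34316674) stand H2-DMa (chr17:34119541-34139101), H2-DMb2 (chr17:34143307-34151555), H2-DMb1 (chr17:34153072-34160230), H2-Ob (chr17:34238903-34254414), H2-Ab1 (chr17:34257689-34269419) and H2-Aa (chr17:34282744-34287823). Ciita lies apart from them at chr16:10480059-10528418. RefSeq windows of 300 bases, from 250 before to 50 after the annotated start, were at hand for 7 of the 10 genes. They were searched on both strands for the letters of the Y box, TGATTGG, and of the X box with its neighbouring X2 box, AAC and ATGATG with any 2 bases between them, motifs that did not overlap in these windows. The Y box letters were in the windows of 6 of these genes, against 7.82% of all 32851 windows. The X box letters were in those of 4 (H2-Eb1, H2-DMb1, H2-DMb2 and H2-Ob), against 0.137% of all windows, and both together occurred in 0.0274%. Neither was found in the windows of H2-DMa. The stretches ending at the Y box are shown, other than that of H2-DMb1, which lies within annotated exons, because most of these genes ran together across the cell types below. They are printed 5′ to 3′ on the strand of the gene (GRCm38.p6) with the matched letters in capitals, and H2-Eb2, a class II beta chain outside the 10 genes, is added since its levels ran the other way in mature dendritic cells.
H2-Aa: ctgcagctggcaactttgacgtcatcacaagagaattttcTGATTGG
H2-Eb1: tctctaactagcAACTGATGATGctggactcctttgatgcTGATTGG
H2-DMb2: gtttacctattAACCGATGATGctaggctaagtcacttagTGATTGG
H2-Oa: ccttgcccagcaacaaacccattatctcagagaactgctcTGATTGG
H2-Ob: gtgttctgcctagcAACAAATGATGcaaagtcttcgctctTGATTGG
H2-Eb2: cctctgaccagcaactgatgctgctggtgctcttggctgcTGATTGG
They stand at chr17:34287867-34287913 (minus strand), chr17:34305766-34305812, chr17:34145117-34145163, chr17:34092294-34092340, chr17:34238806-34238852 and chr17:34325533-34325579 in that order. A match of letters is a description of the sequence and no evidence of binding.

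Cells were assigned to 14 gates by panels of marker genes that held none of the class II genes, and 2847 of 12078 cells (23.6%) met no gate. Every gate had all its panel genes higher than the other gates did, in both libraries. The gates called conventional here were cDC1-like (Xcr1, Clec9a, 314 and 210 cells) and cDC2-like (Cd209a, Clec10a, 135 and 184 cells). Mature DC-like cells (Ccr7, Fscn1, 342 and 282 cells), the migratory state of dendritic cells, formed a gate of their own. Plasmacytoid dendritic cells (pDC-like) numbered 61 and 53, B cell-like cells 76 and 79, classical monocyte-like cells 769 and 1018, nonclassical monocyte-like cells 128 and 111, and C1q macrophage-like cells 1059 and 801. T cell-like (1367 and 769) and NK cell-like cells (359 and 635), which as lymphocytes of the mouse are known to make little or no class II, served as background. In the C1q macrophage-like and T cell-like gates, the 10 genes with the largest fold held no gene of the 14 gate panels. Folr2, Lyve1 and Gas6 came first in the C1q macrophage-like gate, and Folr2 and Lyve1 are in the resident-like state panel used below. The 10 genes of the classical monocyte-like gate held 4 of its own markers but also the immunoglobulin genes Ighv1-80 and Ighg2b.

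Summed over the 9 genes other than Ciita, class II transcripts were most abundant in the cDC1-like and cDC2-like gates, at about 5% of all UMIs. The sum was 48334 CPM (48094 to 48574) and 50390 CPM (50083 to 50697) in cDC1-like cells and 46082 CPM (45650 to 46517) and 52168 CPM (51776 to 52562) in cDC2-like cells, so these gates exchanged places between the libraries. B cell-like cells followed with 27899 and 25233 CPM. Below them the order changed between the libraries. C1q macrophage-like cells had 18127 and 22950 CPM, mature DC-like cells 17661 and 22666 CPM, nonclassical monocyte-like cells 18237 and 16244 CPM, classical monocyte-like cells 14300 and 18645 CPM and pDC-like cells 15265 and 17028 CPM. Nonclassical monocyte-like cells led these in the Irg1+/+ library, by a margin over macrophages within counting error, and were last of them in the other. Cells of no gate had 23949 and 27795 CPM.

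T and NK cells together still had 5618 CPM (5572 to 5664) and 6202 CPM (6145 to 6258) of class II transcripts. Neutrophil-like cells (5752 and 7082 CPM) and the few melanoma-like cells (5720 and 6254 CPM) lay near this level, and eosinophil-like cells above it (9998 and 13353 CPM). Markers of other cells were also counted in T cell-like cells, where the macrophage panel summed to 820 and 814 CPM and the cDC2 panel to 62.9 and 62.4 CPM. Cells with 2000 or more UMIs were thinned to 2000, and shallower cells were left out of the thinned shares (312 and 334 T and NK cells). H2-Aa then had a UMI in 91.4% and 94.9% of T and NK cells (95.2% and 96.4% of all of them unthinned), against 100% of cDC1-like cells. A UMI of H2-Aa in a cell is thus no sign of a class II-expressing cell here. The level in T and NK cells was taken as the background for the other gates. Their ratio of Cd74 to H2-Aa UMIs, 0.85 and 0.81, was close to that of mature DC-like cells (0.84 and 0.86) and below that of cDC1-like cells (1.01 and 0.99), macrophages (1.11 and 1.14) and B cell-like cells (1.20 and 1.26), so it does not set the background apart from every class II-expressing gate.

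**Figure D1:**
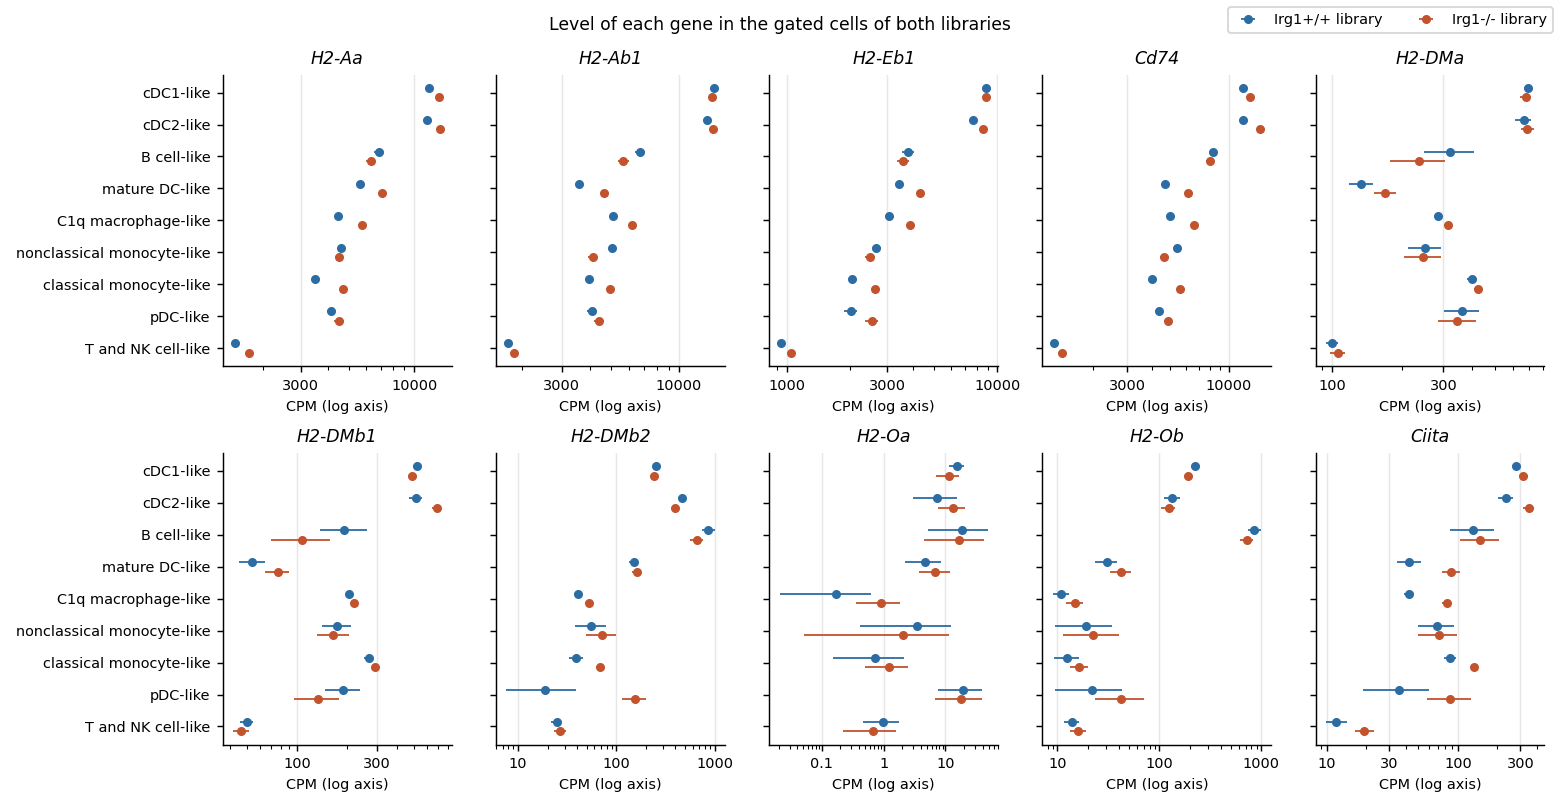
Level of each of the 10 genes by gate, in CPM on a log axis, with 1 point per library and exact 95% Poisson intervals as bars. The conventional dendritic gates hold the highest levels of the peptide-binding chains, H2-Ob and H2-DMb2 are highest in B cell-like cells, and T and NK cells show the background.

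The peptide-binding chains and the invariant chain each had their highest levels in the conventional dendritic gates. B cell-like cells came next in the Irg1+/+ library, while in the library labelled Irg1-/- mature DC-like cells were above them for H2-Aa and H2-Eb1 and C1q macrophages for H2-Ab1 and H2-Eb1. H2-Aa, the I-A alpha chain, had 11712 and 12953 CPM in cDC1-like cells, 11427 and 13126 CPM in cDC2-like cells, 6880 and 6297 CPM in B cell-like cells and 5607 and 7133 CPM in mature DC-like cells. Its level was 4471 and 5761 CPM in C1q macrophages, 3505 and 4700 CPM in classical monocytes and 1491 and 1726 CPM in T and NK cells. All gates named were above the T and NK background in both libraries, and the lowest of them, classical monocytes, by over 2-fold. H2-Ab1, the I-A beta chain, had 14256 and 14097 CPM in cDC1-like cells and 3572 and 4646 CPM in mature DC-like cells. H2-Eb1, the I-E beta chain, whose alpha partner is known not to be expressed in C57BL/6 mice, still had 8800 and 8876 CPM in cDC1-like cells and 946 and 1052 CPM in T and NK cells. Cd74 (chr18:60803848-60812652) had 11866 and 12850 CPM in cDC1-like cells, 8289 and 7966 CPM in B cell-like cells and 1265 and 1391 CPM in T and NK cells.

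The peptide exchange genes were captured less often than the peptide-binding chains in every gate named here and did not all follow the same ranking. H2-DMa, the alpha chain of H2-DM, had 693 and 678 CPM in cDC1-like cells, 663 and 689 CPM in cDC2-like cells and 400 and 423 CPM in classical monocytes, but 284 and 316 CPM in C1q macrophages and 134 and 169 CPM in mature DC-like cells. The T and NK level was 100 and 105 CPM. For H2-DMa and H2-DMb1, classical monocytes thus stood above macrophages in both libraries, while for the peptide-binding chains they stood below.

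The 2 beta chain genes of H2-DM were used in different proportions. H2-DMb1 had 520 and 490 CPM in cDC1-like cells, 269 and 294 CPM in classical monocytes, 204 and 221 CPM in C1q macrophages and 193 and 107 CPM in B cell-like cells. H2-DMb2 had 251 and 243 CPM in cDC1-like cells, 39.2 and 68.4 CPM in classical monocytes, 40.4 and 52.7 CPM in C1q macrophages and 865 and 659 CPM in B cell-like cells. Of the UMIs of both, H2-DMb2 took 81.8% (76.1 to 86.6) and 86.0% (80.2 to 90.7) in B cell-like cells and 73.5% (69.2 to 77.6) and 67.8% (63.2 to 72.1) in mature DC-like cells. The share was 32.5% and 33.2% in cDC1-like cells, and 12.7% (10.9 to 14.7) and 18.9% (17.2 to 20.6) in classical monocytes. The genes are close copies, and 37.1% of the 30-base words of the H2-DMb1 transcript also occur in that of H2-DMb2, but only 14.0% of those in its last 400 bases, so some UMIs may have been given to the wrong copy.

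Of the H2-O genes, H2-Ob was concentrated in B cells and conventional dendritic cells. H2-Ob, the beta chain, had 855 CPM (736 to 989) and 717 CPM (614 to 832) in B cell-like cells, 221 and 191 CPM in cDC1-like cells and 132 and 123 CPM in cDC2-like cells. In C1q macrophages it had 10.8 CPM (8.998 to 12.9) and 14.8 CPM (12.2 to 17.8), no more than the 13.8 CPM (11.6 to 16.2) and 15.9 CPM (13.2 to 19.1) of T and NK cells. H2-Oa, the alpha chain, stayed under 20 CPM in every gate named here. It had 15.2 and 11.2 CPM in cDC1-like cells and 18.8 and 16.5 CPM in B cell-like cells, the latter from 4 UMIs in each library. In macrophages it had 0.171 and 0.901 CPM.

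Ciita had its highest levels in the conventional dendritic gates. The level was 277 CPM (259 to 296) and 316 CPM (292 to 341) in cDC1-like cells, 232 CPM (202 to 265) and 348 CPM (317 to 381) in cDC2-like cells and 132 CPM (87.4 to 190) and 148 CPM (104 to 205) in B cell-like cells. Classical monocytes had 87.1 CPM (78.4 to 96.6) and 132 CPM (123 to 142), nonclassical monocytes 69.0 and 71.5 CPM, C1q macrophages 42.6 CPM (38.9 to 46.5) and 82.1 CPM (75.9 to 88.8), mature DC-like cells 42.5 CPM (34.3 to 52.1) and 88.9 CPM (75.9 to 103), and T and NK cells 11.9 CPM (9.85 to 14.1) and 19.3 CPM (16.3 to 22.7). Neutrophil-like and eosinophil-like cells of the Irg1+/+ library had 0 UMIs of Ciita, which allows levels of up to 29.2 and 52.7 CPM at 3 UMIs, and those of the other library had 5 and 7 UMIs. The order of macrophages and mature DC-like cells was within counting error in both libraries. Among cells with 2000 or more UMIs, thinned to 2000, 48.8% (42.3 to 55.2) and 41.7% (34.6 to 49.1) of cDC1-like cells had a UMI of Ciita (70.4% and 78.6% of all of them unthinned). The share was 2.40% (1.67 to 3.34) and 2.71% (1.82 to 3.87) of T and NK cells (5.74% and 8.69% of all of them unthinned), whose medians before thinning were 3548 and 2840 UMIs, against 9544 and 8874.5 in cDC1-like cells. Mature DC-like cells reached 7.46% and 12.6% and C1q macrophages 8.89% and 12.7%.

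Relative to T and NK cells, 10 of the 10 genes were 2-fold or more higher in cDC1-like cells in both libraries, where 9.67% and 10.4% of all genes tested were. Genes needed 20 UMIs over both groups to be counted. The class II sum was 8.60-fold and 8.13-fold higher and Ciita 23.3-fold and 16.3-fold higher. In cDC2-like cells, 9 of 9 and 10 of 10 genes passed this fold (10.9% and 11.2% of all genes), and in B cell-like cells 9 of 9 in both libraries (14.5% and 13.2%). C1q macrophages had 7 of 9 (14.7% and 15.2%), without H2-DMb2 and H2-Ob. Classical monocytes had 7 of 9 and 8 of 9 (12.9% and 13.9%), and mature DC-like cells 8 of 10 and 7 of 9 (11.8% and 12.8%), without H2-DMa and H2-DMb1.

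The mature DC-like gate had lower levels of the class II genes than either conventional gate. The class II sum was 2.61-fold and 2.30-fold lower than in cDC2-like cells. Apart from H2-Oa, whose intervals reached above 0, the difference was smallest for H2-Aa (log2 of -1.03 and -0.88) and H2-Eb1 (-1.17 and -0.996), larger for Cd74 (-1.33 and -1.23), H2-DMb2 (-1.65 and -1.31), H2-Ab1 (-1.90 and -1.61), H2-Ob (-2.11 and -1.55) and H2-DMa (-2.31 and -2.03), and largest for H2-DMb1. Ciita was 5.44-fold and 3.91-fold lower (log2 of -2.44, -2.82 to -2.09, and -1.97, -2.23 to -1.71). H2-DMb1 was 9.51-fold and 8.91-fold lower, and its 54.1 and 76.7 CPM in mature DC-like cells stood beside 50.01 and 46.4 CPM in T and NK cells. All 9 genes tested were 2-fold or more lower in the Irg1+/+ library, where 17.2% of all genes were, and 7 of 10 in the library labelled Irg1-/- (16.2%). The median over the genes was -1.90 and -1.43 on the log2 scale, against -0.16 over all genes in both libraries, and 0 genes were 2-fold higher (12.1% and 11.4% of all genes were). Against cDC1-like cells, 9 of 10 and 7 of 10 were 2-fold or more lower (18.1% and 18.3%). Both comparisons share the mature DC-like cells. C1q macrophages, with a class II sum near that of mature DC-like cells, had 9 of 9 and 10 of 10 genes 2-fold or more lower than cDC2-like cells, where 9.24% and 7.2% of all genes were.

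**Figure D2:**
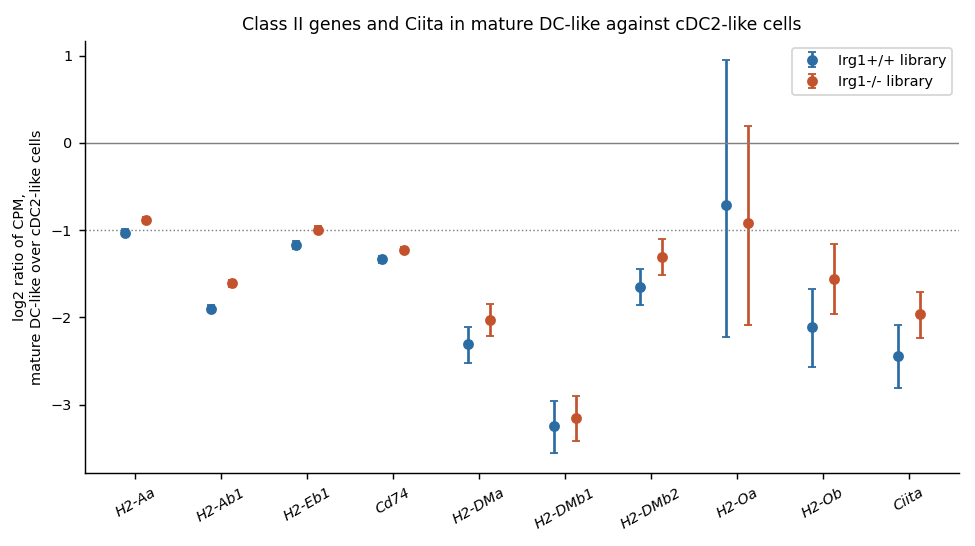
Log2 ratio of CPM in mature DC-like over cDC2-like cells for each of the 10 genes, with 1 point per library, exact 95% intervals as bars and a dotted line at a 2-fold difference. All points lie below 0, H2-DMb1 lowest, and the intervals of H2-Oa alone reach above 0.

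The difference was uneven between the chains. In mature DC-like cells there were 1.57 (1.53 to 1.62) and 1.54 (1.49 to 1.58) UMIs of H2-Aa per UMI of H2-Ab1, whereas the ratio was 0.856 and 0.925 in cDC2-like cells. The other 11 gates with 50 or more cells in each library ranged from 0.793 to 1.11, the highest being B cell-like cells of the library labelled Irg1-/-. Within the mature DC-like gate, cells with 2000 or more UMIs were split into tertiles by the score of the mature panel, which holds no class II gene. The class II sum was 23285 and 28024 CPM in the lowest tertile, 17386 and 20599 CPM in the middle tertile and 13276 and 16853 CPM in the highest tertile. Ciita was 63.0 and 150 CPM in the lowest tertile, 47.1 and 59.2 CPM in the middle tertile and 20.8 and 27.0 CPM in the highest. The H2-Aa to H2-Ab1 ratio was 1.55 and 1.42 in the lowest tertile, 1.52 and 1.56 in the middle tertile and 1.70 and 1.82 in the highest, so in the Irg1+/+ library the lowest and middle tertiles did not differ beyond their intervals. These tertiles are ranges of a score and not separate cell types, with limits set over both libraries. The libraries were spread differently along the score, with 87 and 96 cells in the lowest tertile, 108 and 75 in the middle and 100 and 83 in the highest, and the mature panel summed to 14848 and 12346 CPM over the gate.

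H2-Eb2, a class II beta chain gene beside H2-Eb1, went the other way. It had 186 and 186 CPM in mature DC-like cells, against 40.3 and 23.1 CPM in cDC2-like cells, 11.8 and 10.7 CPM in cDC1-like cells and 98.7 and 103 CPM in B cell-like cells. The mature gate was higher than the cDC2-like gate by a log2 of 2.19 (1.72 to 2.73) and 2.99 (2.47 to 3.60). Marchf1, the ubiquitin ligase that takes class II off the surface, had 15 and 28 UMIs (6.93 and 14.8 CPM) in mature DC-like cells, against 68.9 and 102 CPM in cDC2-like cells (log2 of -3.28 and -2.77). Cd83, which opposes Marchf1 at the protein level, was 1116 and 1327 CPM in mature DC-like cells and 698 and 988 CPM in cDC2-like cells. Of the promoter-bound factors (Rfx5, Rfxap, Rfxank, Nfya, Nfyb, Nfyc and Creb1), 0 of 7 were 2-fold lower in either library, and of the 6 protease genes for antigen and invariant chain (Ctss, Ctsl, Ctsb, Ctsd, Lgmn and Sppl2a) 0 were. With 17.2% and 16.2% of all genes 2-fold lower, lists this short may hold none.

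Between the libraries, the class II sum in cDC1-like cells differed by a log2 of 0.060 (0.049 to 0.071) and 0 of 10 genes were 1.5-fold or more higher in the library labelled Irg1-/-, where 5.71% of all genes were. The difference was 0.18 (0.16 to 0.20) in cDC2-like cells, 0.36 (0.34 to 0.38) in mature DC-like cells, 0.38 (0.37 to 0.40) in classical monocytes and 0.34 (0.33 to 0.35) in C1q macrophages. T and NK cells, the background, differed by 0.14 (0.12 to 0.16). Single genes past 1.5-fold were few. They were H2-Oa in cDC2-like cells, from 7 and 17 UMIs (1 of 10, with 6.96% of all genes), Ciita in mature DC-like cells (1 of 10, 6.96%), H2-DMb2 and Ciita in classical monocytes (2 of 9, 6.02%) and Ciita in C1q macrophages (1 of 9, 5.14%). Ciita did not stay past this fold under every setting. In classical monocytes its log2 difference of 0.60 fell below 1.5-fold with thinned cells (0.49), with the T and NK level subtracted (0.58), without cells that had a UMI of the cDC2 panel (0.52) and in cells of 2000 to 5000 UMIs (0.51) and 5000 to 10000 UMIs (0.53). In macrophages it fell below as a mean over cells (0.50) and in the same bins of depth (-0.47 and 0.41). In mature DC-like cells it fell below in cells of 10000 or more UMIs (0.52, -0.19 to 1.24). The median difference over the genes was 0.38 in mature DC-like cells, 0.40 in classical monocytes and 0.37 in macrophages, against -0.04, -0.01 and -0.03 over all genes. No gene of the set (0 of 10) was 1.5-fold lower in cDC1-like cells (6.99% of all genes were), cDC2-like cells (10.5%) or mature DC-like cells (8.22%). The same held for 0 of 9 in classical monocytes (6.71%), C1q macrophages (6.48%), T cell-like (6.58%) and NK cell-like cells (7.34%).

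**Figure D3:**
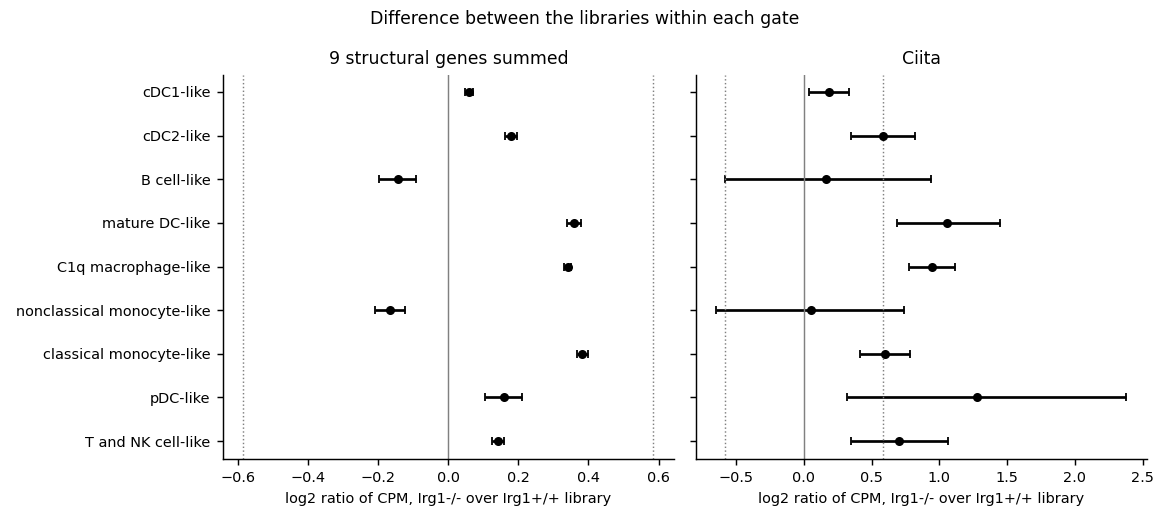
Log2 ratio of CPM in the library labelled Irg1-/- over the Irg1+/+ library for the class II sum (left) and Ciita (right) by gate, with exact 95% intervals for counting error and dotted lines at 1.5-fold. Each panel has its own scale. Ciita points lie above 0 in every gate shown, with intervals that span 0 in B cell-like and nonclassical monocyte-like cells, the class II sum is near 0 in cDC1-like cells, and B cell-like and nonclassical monocyte-like cells lie below 0 for the sum.

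Ciita differed more between the libraries than the class II sum did in several gates. The log2 difference was 1.06 (0.69 to 1.45) in mature DC-like cells, 0.95 (0.78 to 1.12) in C1q macrophages, 0.60 (0.42 to 0.78) in classical monocytes and 0.58 (0.35 to 0.82) in cDC2-like cells, but 0.19 (0.04 to 0.34) in cDC1-like cells. Within mature DC-like cells it was 1.24 (0.73 to 1.81) in the lowest tertile of the mature score, 0.33 (-0.40 to 1.05) in the middle and 0.38 (-0.79 to 1.52) in the highest, and the part of the score in the difference was not tested. It was also 0.70 (0.35 to 1.06) in the T and NK background, where Ciita was the 1 of 9 genes past 1.5-fold in T cell-like cells (3.22% of all genes) and in NK cell-like cells (5.75%). In classical monocytes H2-DMb2 was higher by 0.80 (0.53 to 1.08) and Cd74 by 0.47. In pDC-like cells 3 of 9 genes (H2-DMb2, H2-Ob and Ciita) passed 1.5-fold, where 10.1% of all genes did. In the library labelled Irg1-/-, however, the 2 cells highest for each gene held much of its UMIs. They gave 25 of the 51 UMIs of H2-DMb2, 13 of the 29 of Ciita and 7 of the 14 of H2-Ob. Whether these were the same cells for the 3 genes was not examined. B cell-like cells had 0 of 9 genes higher (10.5% of all genes) and 1, H2-DMb1, lower (13.7%), with a class II sum lower by a log2 of -0.14 (-0.20 to -0.09). Nonclassical monocytes had a sum lower by -0.17 (-0.21 to -0.12) and 0 of 9 genes past 1.5-fold higher (7.84%).

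The H2-Aa to H2-Ab1 ratio was higher in the library labelled Irg1-/- in 11 of 12 gates, with an approximate (normal) 95% interval above 0 for the log2 difference in 6. Mature DC-like cells were the exception (1.57 and 1.54). Over all kept cells the ratio was 0.897 and 0.972. In T cell-like cells, part of the background, it was 0.859 and 0.945, with an interval above 0 for the difference. The gates share libraries and free RNA, so they are not separate observations.

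The difference between the libraries in C1q macrophages varied with the depth of the cells. In cells under 2000 UMIs (204 and 109 cells) the class II sum was 19449 and 23268 CPM, a log2 difference of 0.26 (0.18 to 0.33). In cells of 2000 to 5000 UMIs (118 and 110 cells) it was 21528 and 20824 CPM, a log2 difference of -0.048. At 5000 to 10000 UMIs (273 and 243 cells) the difference was 0.089, and at 10000 or more (464 and 339 cells) it was 0.42, with 16835 and 22586 CPM. Ciita differed by -0.45 (-1.36 to 0.40), 0.41 and 1.22 (1.01 to 1.43) in the 3 bins from 2000 UMIs up. In classical monocytes the sum differed by 0.38 under 2000 UMIs and by 0.30, 0.37 and 0.32 in the higher bins, and Ciita by 0.51, 0.53 and 0.78 from 2000 UMIs up. In cDC2-like cells the sum differed by 0.065, 0.15 and 0.28 from 2000 UMIs up, and in mature DC-like cells by 0.69 under 2000 UMIs and by 0.40, 0.23 and 0.50 above. Ciita differed by 0.25, 0.70 and 0.40 in cDC2-like cells and by 0.65, 1.44 and 0.52 in mature DC-like cells, in the bins from 2000 UMIs up. Markers of cDC2 were counted in classical monocytes and in macrophages. All 6 cDC2 panel genes were seen in classical monocytes, summing to 105 and 159 CPM (Cd209a first, at 39.7 and 67.8 CPM), and in macrophages to 113 and 121 CPM (Clec10a first), against 2841 and 3129 CPM in cDC2-like cells. Without cells that had a UMI of this panel, the sum differed by 0.22 in classical monocytes and by 0.11 in macrophages, and Ciita by 0.52 and 0.74. A deeper cell is more likely to hold such a UMI, and the panel also summed to 62.9 and 62.4 CPM in T cell-like cells. The step thus also selected cells by depth, and its effect was not separated from that of depth. The classical monocyte panel, with all 8 genes seen, summed to 1649 and 2672 CPM in macrophages (Ccr2 first in the Irg1+/+ library and Ly6c2, at 897 CPM, in the other). It summed to 3015 and 3979 CPM in cDC2-like cells and to 621 and 1283 CPM in mature DC-like cells, so it was higher in the library labelled Irg1-/- in all 3. The panel was also higher there in cDC1-like cells (1441 and 2596 CPM), T cell-like cells (2221 and 3106 CPM), NK cell-like cells (2797 and 3201 CPM) and nonclassical monocyte-like cells (5702 and 6550 CPM). Its rise was thus not particular to the gates with the larger class II differences. Classical monocytes themselves had more Ciita than macrophages. The part of these in the differences was not tested.

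**Figure D4:**
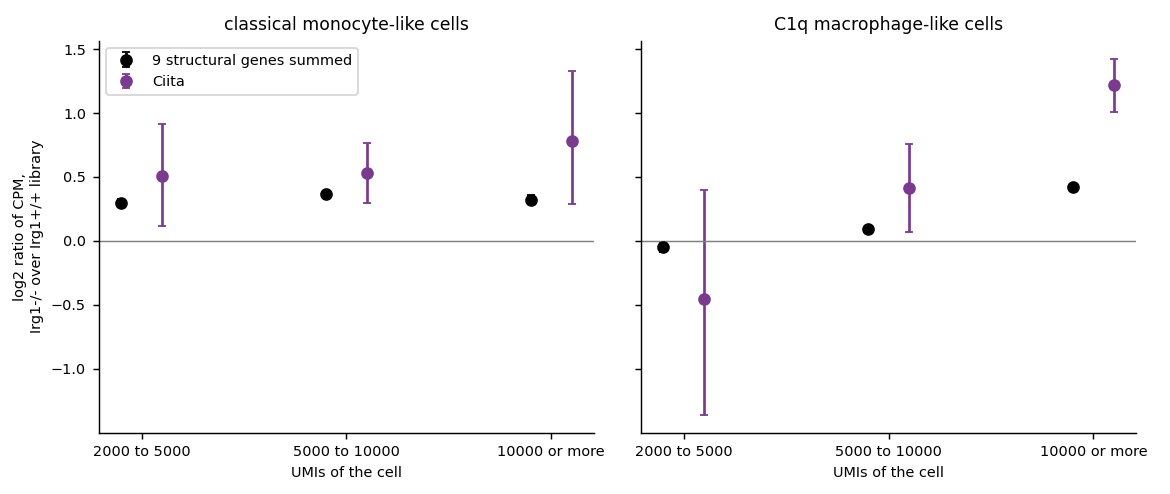
Log2 ratio between the libraries for the class II sum and Ciita in bins of UMIs per cell from 2000 up, for classical monocyte-like and C1q macrophage-like cells, with exact 95% intervals. In macrophages the ratio of the sum is near 0 at 2000 to 5000 UMIs and highest at 10000 or more, while in classical monocytes it is above 0 in every bin shown.

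Single cells of a gate varied widely in class II. Among cells with 2000 or more UMIs, the median was 44.1 and 52.1 class II UMIs per 10000 in T and NK cells (10th percentile 30.2 and 36.7, 90th percentile 66.9 and 74.1). The medians were 502 and 515 in cDC1-like cells, 497 and 549 in cDC2-like cells and 251 and 293 in B cell-like cells. Classical monocytes reached from 35.4 and 43.1 at the 10th percentile to 336 and 399 at the 90th, with medians of 71.3 and 110. At 100 or more per 10000 stood 4.6% and 3.27% of T and NK cells, 41.3% and 52.7% of classical monocytes, 56.3% and 68.5% of mature DC-like cells and 65.3% and 73.1% of C1q macrophages.

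**Figure D5:**
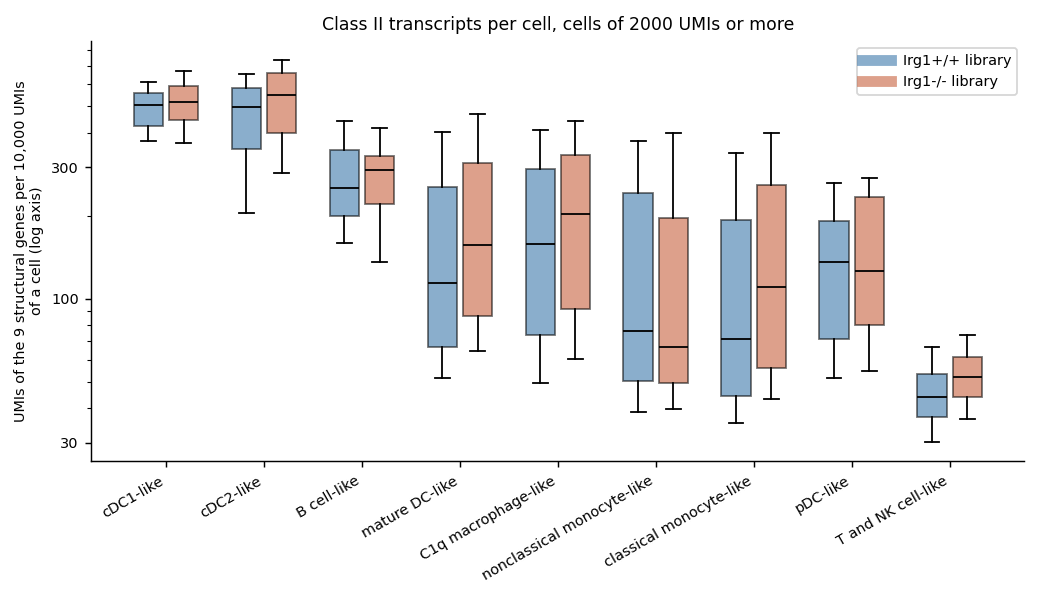
Class II UMIs per 10000 UMIs in single cells with 2000 or more UMIs, by gate and library, on a log axis, with the median as a line, the quartiles as a box and the 10th and 90th percentiles as whiskers. Cells of the conventional dendritic gates centre near 500, while the whiskers of classical monocytes reach from the T and NK background to 336 and 399.

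Classical monocytes with 2000 or more UMIs were split by Cxcl9 and Cxcl10, chemokines induced by interferon gamma, at under 2 and at 10 or more UMIs per 10000. The class II sum was 13450 and 19009 CPM in the low group (272 and 270 cells), 13622 and 17722 CPM in the middle group (210 and 316 cells) and 15814 and 19118 CPM in the high group (218 and 336 cells). The high group was above the low group by a log2 of 0.23 (0.21 to 0.26) for Irg1+/+ cells and 0.01 (-0.01 to 0.03) for the others. Ciita was 70.3 and 131 CPM in the low group and 118 and 145 CPM in the high group, a difference of 0.74 (0.39 to 1.11) and 0.14 (-0.12 to 0.40). None of 9 genes (0 of 9) was 2-fold higher in the high group, where 2.73% and 2.4% of all genes were, while the guanylate-binding protein genes Gbp2 (1.95 and 2.13) and Gbp5 (2.47 and 2.48) were, on the log2 scale. Between the libraries, 2 of 9 genes were 1.5-fold higher in the library labelled Irg1-/- in each group, which were Cd74 and Ciita in the low group (8.46% of all genes), H2-DMb2 and Ciita in the middle group (8.1%) and H2-DMb2 and H2-Ob in the high group (7.01%). The call of H2-Ob in the high group came from 14 and 38 UMIs. In each group 0 of 9 were 1.5-fold lower (7.8%, 7.9% and 7.57%). Of the 1622 cells, 334 lay within 2-fold of the upper limit of the split.

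Among macrophage states, assigned within the C1q gate by their own panels, the class II sum was highest in Retnla cells (28001 and 30757 CPM, 22 and 30 cells) and monocyte-derived cells (24980 and 32011 CPM, 95 and 55 cells). It was 19643 and 20239 CPM in cycling cells, 17158 and 19491 CPM in hypoxic cells, 16518 and 22329 CPM in Mrc1 cells and 13510 and 21483 CPM in the 15 and 46 resident-like cells. Monocyte-derived cells exceeded hypoxic cells by a log2 of 0.54 and 0.72 for the sum and 0.62 and 0.81 for Ciita.

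Other genes of the pathway were compared between the libraries in the same gates. Irf1, a transcription factor that acts on Ciita, had 343 and 697 CPM in cDC1-like cells (log2 of 1.02), where Ciita differed by 0.19, and 584 and 1113 CPM in cDC2-like cells (0.93). In C1q macrophages Irf1 had 444 and 651 CPM (0.55), and in mature DC-like cells 536 and 728 CPM, both under 1.5-fold. In classical monocytes Irf1 had 672 and 736 CPM in the Cxcl9 and Cxcl10 low group and 928 and 1219 CPM in the high group. Ifng, the gene of interferon gamma, was lower in cDC1-like cells of the library labelled Irg1-/- (30.7 and 9.73 CPM, from 99 and 20 UMIs, where 6.99% of all genes were 1.5-fold lower). It was 17.0 and 15.4 CPM in cDC2-like cells, 14.8 and 14.3 CPM in mature DC-like cells, 13.6 and 17.8 CPM in classical monocytes and 20.1 and 24.1 CPM in macrophages, with intervals of the difference that span 0, against 243 and 266 CPM in T and NK cells. Of 4 interferon gamma-induced genes (Cxcl9, Gbp2, Gbp4 and Gbp5), 3 were 1.5-fold or more higher in that library in macrophages (Gbp2, Gbp4 and Gbp5, against 5.14% of all genes), 1 in mature DC-like cells (Cxcl9, 275 and 711 CPM, against 6.96%), 1 in cDC1-like cells (Gbp5, against 5.71%) and 0 in cDC2-like cells (6.96%) and classical monocytes (6.02%). Of the 7 promoter-bound factors (5 with enough UMIs in cDC2-like cells) and 6 protease genes, 0 were 1.5-fold higher in these 5 gates. Of the factors, Nfyb was 1.5-fold or more lower in cDC2-like cells (53.0 and 33.1 CPM), where 10.5% of all genes were, and Rfxap in mature DC-like cells (24.95 and 14.3 CPM), where 8.22% were. At these shares of all genes, 0 or 1 gene of such a list is near the background. Ctsl, a protease of the invariant chain, was lower in cDC2-like cells (85.8 and 56.2 CPM) and mature DC-like cells (102 and 64.0 CPM). Of the surface turnover genes (Marchf1, Marchf8 and Cd83), Marchf1 was 1.5-fold or more higher in mature DC-like cells (the 15 and 28 UMIs above, where 6.96% of all genes were) but not in macrophages (80.2 and 116 CPM) or cDC1-like cells (120 and 156 CPM). Marchf8, a ligase related to Marchf1, was past 1.5-fold from few UMIs, higher in cDC1-like cells (15 and 17 UMIs) and lower in mature DC-like cells (15 and 8 UMIs), with intervals that span 0 in both.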

How the data were processed

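The deposited tables hold unnormalized UMI counts for each gene in each cell, which the authors made with fastp, UMI-tools and STAR against the mouse genome (Ensembl, GRCm38), as the study's methods and the submitters' processing notes state. The notes also name CASAVA 1.8. Cells with over 200 genes and mitochondrial genes under 10% of UMIs were kept, and the 13 mitochondrial genes were then left out. A cell's score for a panel was the mean, over its genes, of UMIs per 10000 capped at the mean of the 200 highest cells. A cell entered a gate where its highest score was over 0.05 and 1.5 times the next, with 2 panel genes seen. Macrophage states used a margin of 1.25 and 100 cells. These settings were chosen after the data had been seen, and the genes, panels and lists with earlier results of these data known. Ifi30 and H2-Ea, on the lists, were not analysed here, and 1 gene of the lists is not reported here. Named genes are the 10, those of the listed pathways, and the 5 most like each pattern. UMIs were summed per gate and library. Log2 ratios carry a pseudocount of 0.5 UMIs. No test was made with 1 library per genotype. Doublets were kept, since Scrublet's own threshold called 0 cells, and leaving out its top 5% of scores (328 and 327 cells) was an alternative. Analyses used Python 3.11.15, scanpy 1.11.5 and, for TMM factors, edgeR 4.0.16. The 1.5-fold rule and the interval of the ratios were tested on simulated counts. These held no single cells, so the gating was not part of that test.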

Additional observations from a re-analysis of the deposited data

Results flagged for a closer look

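The class II sum was lower in the library labelled Irg1-/- in B cell-like cells (log2 of -0.14, 76 and 79 cells) and in nonclassical monocyte-like cells (-0.17, 128 and 111 cells), opposite in sign to 6 other gates, which were cDC1-like, cDC2-like, mature DC-like, pDC-like, classical monocyte-like and C1q macrophage-like cells. The difference between these gates and the others was not tested, since each genotype has 1 library. Under the alternatives the value ranged from -0.23 to -0.022 in B cell-like cells, nearest 0 with thinned cells, and from -0.43 to -0.085 in nonclassical monocyte-like cells.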

How the results depend on the processing

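No paired analysis was possible because each genotype has 1 library, and for the same reason no replicate could be left out. Of 194 recomputed log2 differences, 187 kept their sign. All values here are log2 differences, in the settings' order of stricter gates, mean over cells, no doublets, mitochondrial genes under 5%, thinning, background subtracted, denominator without the 10 genes, TMM, and then the settings chosen after seeing the data, which are a margin of 2, no cells with a cDC2 panel UMI, and depth bins. Each value given moved past its counting interval or turned sign. The class II sum between libraries became 0.14 (stricter), 0.15 (thinned), 0.26 (TMM) and 0.080 (margin) in cDC2-like cells. In mature DC-like cells it became 0.34 (stricter), 0.32 (mean), 0.31 (thinned), 0.45 (background) and 0.39 (TMM). In classical monocytes it became 0.34 (mean), 0.33 (thinned), 0.52 (background), 0.42 (TMM), 0.33 (margin), 0.22 (no cDC2 panel), 0.30 (2000 to 5000 UMIs) and 0.32 (10000 or more). In C1q macrophages it became 0.23 (mean), 0.32 (no doublets), 0.35 (mitochondrial), 0.21 (thinned), 0.42 (background), 0.37 (TMM), 0.33 (margin), 0.11 (no cDC2 panel), -0.048 (2000 to 5000), 0.089 (5000 to 10000) and 0.42 (10000 or more). Ciita, without the pseudocount, became 0.80 in classical monocytes (10000 or more) and, in macrophages, 0.50 (mean), 0.59 (thinned), 0.74 (no cDC2 panel), -0.47 (2000 to 5000), 0.41 (5000 to 10000) and 1.22 (10000 or more). The sign also turned for the sum in pDC-like cells under stricter gates (-0.055), for Ciita in cDC1-like cells when thinned (-0.17) and for Ciita in nonclassical monocytes, from 0.053 to -0.34 (mean), -0.13 (background) and -0.96 (margin). Less central values ranged from 0.036 to 0.092 for the sum in cDC1-like cells, and Ciita in cDC2-like cells was 0.34 at the wider margin. Ciita in B cell-like cells reached 1.04 (mitochondrial), and in mature DC-like over cDC2-like cells it reached -2.84 (background) in the Irg1+/+ library and -2.29 (thinned) in the other. The share of all genes past 1.5-fold higher became 16.9% in classical monocytes and 17.2% in macrophages with no filter on low counts, and 1.79% and 1.502% at 2-fold, which 0 of the 9 genes tested passed in either gate. The sum in mature DC-like over cDC2-like cells became -1.43 (no doublets), -1.75 (background), -1.43 (denominator) and -1.50 (margin) in the Irg1+/+ library, and -1.24 (mean), -1.23 (no doublets), -1.23 (thinned), -1.48 (background) and -1.25 (denominator) in the other. The cause was not tested.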

Other observations

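Across the 12 gates with at least 50 cells in each library, 10727 genes were compared by Pearson's r of log2(CPM + 1), a description with no test, since gates share libraries, depth and free RNA. Fgd2 was most like the class II sum (mean r of 0.87 over the libraries), followed by Prcp (0.85), Myo9a (0.84), Cd2ap (0.84) and Gm6377 (0.83). Cd2ap was most like Ciita (0.92), followed by Fcgrt, the neonatal Fc receptor (0.91), Rasgef1b (0.91), Gdi2 (0.88) and Hdac9 (0.87). Fgd2 had 124 and 119 CPM in cDC1-like cells, 29.1 and 44.4 CPM in mature DC-like cells and 31.0 and 47.4 CPM in C1q macrophages. Ranked by Spearman's rho, 1 of the 5 genes for the sum and 3 of the 5 for Ciita were the same. Ciita and the class II sum had an r of 0.82 and 0.98 over these gates.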
